A study of Capra hircus with 3 samples.

Results

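The miRNAs described here are a set known from leukocytes, namely miR-223, miR-142, miR-150, miR-155, miR-146a and miR-146b, as read in the skin of the Shanbei White cashmere goat. Skin of the flank of adult goats was sampled in anagen, the growth stage of the hair follicle, in catagen, its regression, and in telogen, its rest. Small RNA was sequenced from 1 library per stage, and each library was made from RNA of the mixed skin of 10 goats. All animals were of the same breed, and the labels give no treatment. Both sexes entered the pools, so no value belongs to a single animal, and no difference has a replicate check. The set was chosen by name as a view of leukocyte content and inflammation. Reads were counted for a miRNA when the first 18 nt of the tag (a distinct sequence with its number of reads) were those of a tag that the authors list for that miRNA. By this rule 5 of the 6 precursors were measured, with 7 arms among the 464 arms that had reads, and 78 listed tags. No sequence of miR-150 was found in the sources used, and it was not analysed here.

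A miRNA precursor is a hairpin that is cut into a 5p and a 3p arm, and either arm can be loaded into an Argonaute protein. The loaded arm finds mRNAs mainly through its seed, bases 2 to 8, so a start that is shifted by a single base gives another seed. miR-223 is best known from neutrophils and other myeloid cells. miR-142 is expressed throughout blood cell lineages, and miR-150 in mature lymphocytes. miR-155 comes from the transcript of a non-coding host gene and is induced in activated lymphocytes and macrophages. miR-146a is induced through NF-kB and represses the adaptor proteins IRAK1 and TRAF6 of Toll-like receptor signalling, and miR-146b is its close relative from another locus. Some of these miRNAs, miR-146 above all, are also made in cells that are not leukocytes, including epithelial cells and fibroblasts.

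The most read tag of each start that matters below is printed first, because the starts decide the seeds. The sequences are from the deposited tags, written as DNA, and the capitals mark the seed.
miR-223-3p, main start: tGTCAGTTtgtcaaataccccat
miR-223-3p, start shifted by +1 nt: gTCAGTTTgtcaaataccccaa
miR-223-5p, listed start: tTTGACAAgctgagttggaca
miR-142-5p, main start: cCCATAAAgtagaaagcacta
miR-142-5p, start shifted by +2 nt: cATAAAGTagaaagcactacta
miR-142-5p, start shifted by +3 nt: aTAAAGTAgaaagcactactaa
miR-142-3p, main start: gTAGTGTTtcctactttatgg
miR-142-3p, start shifted by -1 nt: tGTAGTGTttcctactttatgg
miR-155-5p: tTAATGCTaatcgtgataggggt
miR-146b-3p, main start: gCCCTAGGgactcagttctggt

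Of the seeds of the starts with at least 100 reads in all, none occurred in another arm of the table with that many reads. miR-146a-5p and miR-146b-5p share their seed with each other. In the tags printed below the pair shares its first 20 bases as well, and differs at base 21 (T21C, miR-146a first, counted from the 5′ end). The capitals below mark the seed and that base.
miR-146a-5p: tGAGAACTgaattccataggTt
miR-146b-5p: tGAGAACTgaattccataggCtgt

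The libraries held 15997828 (anagen), 18111912 (catagen) and 27016012 (telogen) clean reads. Arms of conserved miRNAs took between 36.2%, in telogen, and 45.1%, in catagen, of these. The immune cell set held 24638, 33381 and 59872 reads, or 0.342%, 0.409% and 0.612% of the reads of all arms. These arms were counted from a shortened copy of the authors' tag list. It leaves out most reads of some abundant miRNAs. The paper places let-7g among the most read miRNAs of every stage, but its counted arm had 2, 8 and 28 reads. These shares, and the ranks and call percentages over all arms given below, hold for the counted arms only. Levels are reads per 1000000 clean reads (RPM) with exact Poisson 95% intervals, and 1 read was worth 0.0625, 0.0552 and 0.0370 RPM. Amplified reads are not independent molecules, so all intervals and tests cover counting error only. They compare libraries, and not stages. In whole skin, fewer cells of a type and less RNA per cell cannot be told apart.

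miR-146 was by far the most read of the set in all 3 libraries. The joint miR-146a/b-5p arm ranked 16 of 436 counted arms with reads in anagen, 18 of 445 in catagen and 15 of 440 in telogen. Abundant miRNAs such as let-7g were counted at few of their reads, so these ranks may be too high. The miR-146a/b-5p arm had 19.0, 21.3 and 22 times the reads of the next member, miR-142-5p. After miR-142-5p came miR-155-5p, miR-223-3p and miR-142-3p in anagen and catagen. In telogen miR-223-3p stood above miR-155-5p, but their intervals overlapped, and so did those of miR-142-5p and miR-155-5p in catagen. The 2 least read arms, miR-223-5p and miR-146b-3p, were near or below 1 RPM, and their intervals overlapped in catagen and telogen.

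**Figure D1:**
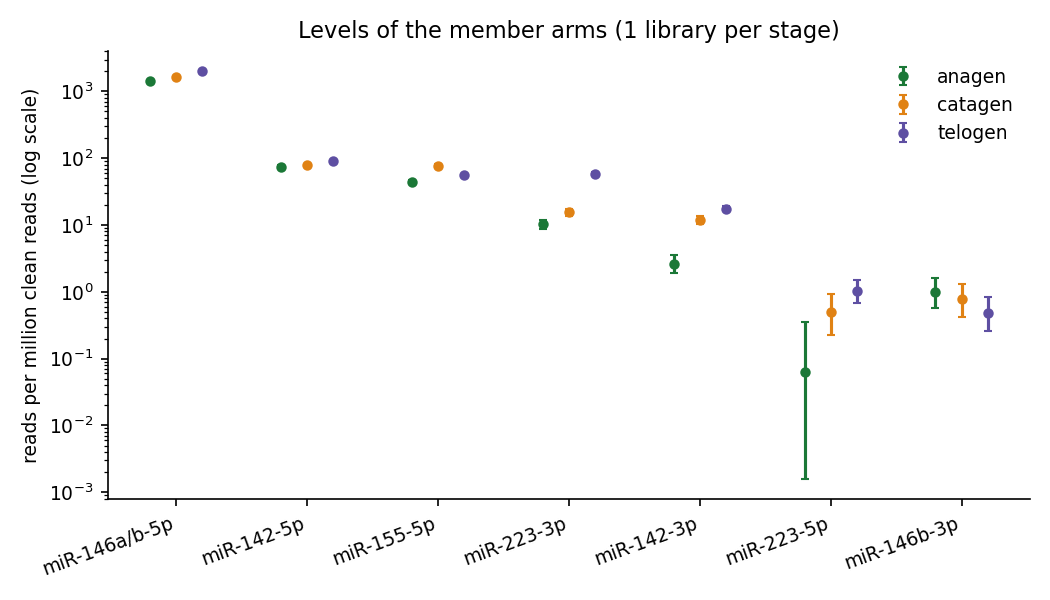
Levels of the 7 arms in RPM (log axis), with 1 point per library and exact Poisson 95% intervals of counting error. miR-146a/b-5p lies above 1400 RPM in each library, and miR-223-3p and miR-142-3p have their lowest point in anagen and their highest in telogen.

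miR-223-3p, the myeloid member, had 163, 281 and 1588 reads in the anagen, catagen and telogen libraries, which are 10.2 RPM (95% interval 8.68 to 11.9), 15.5 RPM (13.8 to 17.4) and 58.8 RPM (55.9 to 61.7). The telogen library was high and the other libraries were low, and no intervals overlapped. A call here means a ratio of RPM above 2-fold in either direction (an absolute log2 ratio above 1) with a two-sided exact p under 0.01 by the test of Audic and Claverie on the reads. The telogen level was called above anagen, with a log2 ratio of 2.53 (95% interval 2.29 to 2.77, exact p = 3.84e-157), and above catagen, with a log2 ratio of 1.92 (1.74 to 2.11, exact p = 1.55e-123). With an assumed biological coefficient of variation (BCV) of 0.4 in the edgeR exact test, the call against catagen was lost (exact p = 0.0267) and that against anagen was kept (exact p = 0.00435). The log2 ratio of catagen over anagen was 0.61 (0.32 to 0.89), below the limit of the call. The rank of miR-223-3p among all counted arms went from 133 in anagen and 119 in catagen to 65 in telogen.

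The other arm of the hairpin, miR-223-5p, had 1, 9 and 28 reads at its listed starts (0.0625, 0.497 and 1.04 RPM). With 1 read in anagen, the log2 ratio of telogen over anagen was 4.05 with a wide interval (1.45 to 9.41, exact p = 5.04e-05), which is a call, and which was lost with the assumed BCV (exact p = 0.0105). The ratio of telogen over catagen had a log2 value of 1.06 and an interval that included 0 (-0.06 to 2.33, exact p = 0.0671). Most reads of this arm began 6 nt before the listed start. A count of every tag that holds the inner 16 nt of the arm, added after the data were seen, gave 19, 57 and 194 reads (1.19, 3.15 and 7.18 RPM). By that count the log2 ratios were 1.41 (0.64 to 2.24) for catagen over anagen, 2.60 (1.91 to 3.36) for telogen over anagen and 1.19 (0.76 to 1.64) for telogen over catagen. The 3p arm then had 8.58, 4.93 and 8.19 times the reads of the 5p arm. The longer and the shorter form of these tags are printed with the inner 16 nt in capitals. The first was read 13, 25 and 102 times, and the other 0, 11 and 43 times.
miR-223-5p, 29 nt: tgtgtattTGACAAGCTGAGTTGGacact
miR-223-5p, 24 nt: tgtgtattTGACAAGCTGAGTTGG

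The 2 arms of miR-142, the general blood cell miRNA, differed in their course. miR-142-5p had 1188, 1412 and 2449 reads, or 74.3, 78.0 and 90.6 RPM in anagen, catagen and telogen. With all tags its levels lay within 1.22-fold of each other. The log2 ratio was 0.07 for catagen over anagen (-0.04 to 0.18, exact p = 0.224), and it turned to -0.23 with median-of-ratios factors and to -0.34 with TMM factors. The ratio of telogen over anagen had a log2 value of 0.29 (0.19 to 0.39), which turned to -0.01 with TMM factors. With tags of 21 nt or longer alone the levels lay further apart, at 42.5, 62.9 and 77.3 RPM, and the log2 ratios were 0.57 for catagen over anagen (exact p = 2.66e-16) and 0.86 for telogen over anagen (exact p = 2.20e-45).

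miR-142-3p had 42, 214 and 474 reads, or 2.63 RPM (1.89 to 3.55), 11.8 RPM (10.3 to 13.5) and 17.5 RPM (16 to 19.2). Anagen was low, and the intervals of the 3 libraries did not overlap. The catagen level was called above anagen, with a log2 ratio of 2.17 (1.69 to 2.68, exact p = 1.65e-24), and so was telogen, with 2.74 (2.28 to 3.23, exact p = 4.23e-52). With the assumed BCV the call in catagen was lost (exact p = 0.0169) and that in telogen was kept (exact p = 0.00273). The log2 ratio of telogen over catagen was 0.57 (0.33 to 0.81), below the limit of the call.

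The 5p arm of miR-142 had 28.3 times the reads of the 3p arm in anagen, 6.60 times in catagen and 5.17 times in telogen. As a share of the reads of both arms, the 3p arm made up 3.41% in anagen, with an exact 95% interval of 2.47 to 4.59. The share was 13.2% in catagen (11.6 to 14.9), and telogen had 16.2% (14.9 to 17.6). This comparison needs no scaling between libraries, since both arms are read in the same library. The odds of a 3p read were 4.29 times those of anagen in catagen (Fisher's exact p = 3.94e-21) and 5.47 times in telogen (Fisher's exact p = 2.61e-36), each two-sided. Between telogen and catagen the odds ratio was 1.28 (Fisher's exact p = 0.00572). Short tags moved with this result, since 42.8% of the anagen reads of miR-142-5p were of 18 to 20 nt. With tags of 21 nt or longer alone, the 5p arm still had 16.6, 5.38 and 4.48 times the reads of the 3p arm. The odds ratio was then 3.08 for catagen over anagen (Fisher's exact p = 4.34e-12) and 3.70 for telogen over anagen (Fisher's exact p = 3.77e-19). For telogen over catagen it fell to 1.20 (Fisher's exact p = 0.0457).

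miR-155-5p, induced in activated lymphocytes and macrophages, had 701, 1407 and 1493 reads, or 43.8 RPM (40.6 to 47.2), 77.7 RPM (73.7 to 81.9) and 55.3 RPM (52.5 to 58.1). Catagen was its highest library. The log2 ratios were 0.83 (0.69 to 0.96, exact p = 6.94e-37) for catagen over anagen, 0.33 (0.20 to 0.47, exact p = 3.22e-07) for telogen over anagen and -0.49 (-0.60 to -0.39, exact p = 6.79e-20) for telogen over catagen. None passed the fold limit, although all differed beyond counting error. With tags of 21 nt or longer alone the levels were 30.8, 74.7 and 49.0 RPM, and catagen over anagen passed the limit with a log2 ratio of 1.28. Over all arms, 97 were called in that pair with these tags, against 80 with all tags. Only the 5p arm of miR-155 was in the list.

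The miR-146a/b-5p arm had 22527, 30044 and 53827 reads, or 1408, 1659 and 1992 RPM. The log2 ratio of catagen over anagen was 0.24 (0.21 to 0.26, exact p = 1.34e-77), and it turned to -0.06 with median-of-ratios factors and to -0.17 with TMM factors. The log2 ratios of telogen were 0.50 (0.48 to 0.52) over anagen and 0.26 (0.24 to 0.28, exact p = 4.48e-145) over catagen, and none was a call. At this depth small ratios have narrow counting intervals, so the choice of scaling outweighs the counting error.

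Nearly all of the counted tags that reach base 21 carried the base of miR-146b. They were 22316, 29898 and 53431 reads (1395, 1651 and 1978 RPM). The base of miR-146a was read 71, 121 and 200 times, or 4.44 RPM (3.47 to 5.60), 6.68 RPM (5.54 to 7.98) and 7.40 RPM (6.41 to 8.50). As a share of the tags that could be told apart, miR-146a was 0.317% in anagen (exact 95% interval 0.248 to 0.40). It was 0.403% in catagen (0.335 to 0.481), and telogen had 0.373% (0.323 to 0.428), with intervals that overlapped. A further 135, 17 and 166 reads were too short to tell. If all of these were miR-146a, its share was 0.915%, 0.459% and 0.680%, with anagen highest, so the order of the libraries in this share was not settled. A T at base 21 can also be a base added to a shortened miR-146b tag. Of the reads counted for miR-146a, 8, 6 and 14 went on with the next 2 bases of its listed sequence, so the share of miR-146a may be overstated. It may also be understated, because only tags with a listed start were counted. The paper identified conserved miRNAs by comparison with cattle sequences. Reads of a goat miR-146a with another base within the listed start would be missed, and such reads were not sought. The low share of miR-146a therefore holds for the counted tags only. The log2 ratios of miR-146a were 0.59 (0.16 to 1.03) for catagen over anagen, 0.74 (0.34 to 1.15) for telogen over anagen and 0.15 (-0.18 to 0.49) for telogen over catagen.

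miR-146b-3p, the passenger arm, had 16, 14 and 13 reads (1.00, 0.773 and 0.481 RPM). Its log2 ratios were -0.37 (-1.52 to 0.76, exact p = 0.480) for catagen over anagen and -1.06 (-2.23 to 0.09, exact p = 0.0469) for telogen over anagen. A difference was not detectable at this depth.

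Set against all counted arms, the calls of the immune cell set were as follows. For catagen over anagen, 1 of 6 arms tested was called, miR-142-3p, and it was higher in catagen. In that pair 27.7% of the 289 arms tested were called, with 22.5% higher in catagen and 5.19% lower. For telogen over anagen, 3 of 7 arms were called, namely miR-223-3p, miR-223-5p and miR-142-3p, all higher in telogen. In that pair 24.4% of 287 arms were called, with 19.5% higher in telogen and 4.88% lower. For telogen over catagen, 1 of 6 arms was called, miR-223-3p, higher in telogen, where 12.8% of 288 arms were called, 5.9% higher and 6.94% lower in telogen. No member was called lower in any of the 3 pairs. The 3 pairs share their libraries, so their calls are not independent. Arms cut from the same hairpin, as those of miR-223 and those of miR-142, are not independent members either. The calls on miR-223-5p and miR-142-3p against anagen rest on 1 and 42 anagen reads.

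The libraries differed over all arms as well, and a member's ratio is best read against that shift. The median log2 ratio was 0.43 over all arms tested and 0.42 over the members for catagen over anagen. For telogen over anagen it was 0.31 over all arms and 0.50 over the members. For telogen over catagen it was -0.10 over all arms and 0.42 over the members. Thus in catagen over anagen the ratios of miR-142-5p and miR-146a/b-5p lay below the median arm, and that of miR-155-5p above it. Log2 ratios above 0 were found in 5 of 6 member arms in catagen over anagen, where 68.9% of all arms had them. They were found in 6 of 7 in telogen over anagen, where 63.4% of all arms had them. In telogen over catagen 5 of 6 had them, against 39.9% of all arms. Arms of the same hairpin are counted apart in these values. Other scalings move every ratio of a pair alike. For catagen over anagen, median-of-ratios factors change each log2 ratio by -0.30 and TMM factors by -0.41. For telogen over anagen the changes are -0.14 and -0.30, and for telogen over catagen 0.16 and 0.11. Scaling to the reads of all arms leaves catagen over anagen nearly as it was, and changes telogen over anagen by 0.32 and telogen over catagen by 0.32. The split of the calls over all arms moves with the scaling. In catagen over anagen 65 arms were called higher and 15 lower, against 33 and 22 with median-of-ratios factors and 28 and 26 with TMM factors. In telogen over anagen 56 arms were called higher and 14 lower, against 91 and 10 when scaled to the reads of all arms and 35 and 29 with TMM factors. In telogen over catagen 17 were called higher and 20 lower, against 30 and 16 when scaled to the reads of all arms. The calls on miR-223-3p and miR-142-3p held under each of these scalings.

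**Figure D2:**
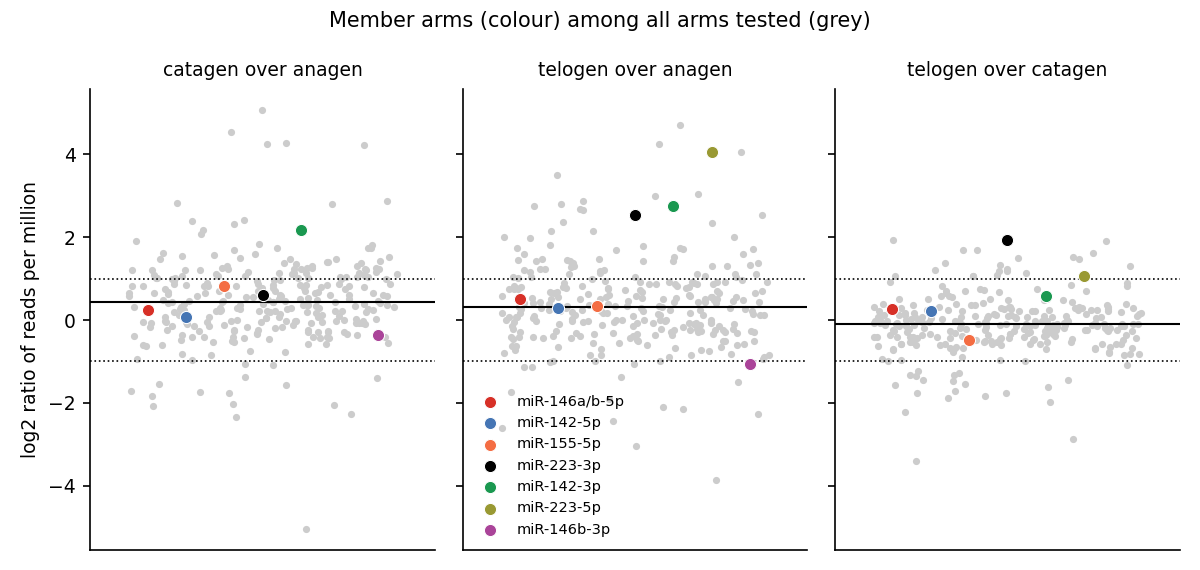
Log2 ratios of RPM between libraries for each pair, with all arms tested in grey and the member arms in colour (horizontal position within a panel has no meaning). The solid line is the median of all arms and the dotted lines the limits of a call, and miR-223-3p lies above 1 in both telogen panels.

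The length of the tags differed between the libraries in every well-read member. Among reads of miR-142-5p, tags of 18 to 20 nt made up 42.8%, 19.3% and 14.8% in the order anagen, catagen, telogen. For miR-155-5p the shares were 29.7%, 3.84% and 11.3%, and for miR-223-3p 20.9%, 4.27% and 9.89%. miR-146a/b-5p was nearly free of short tags, with 0.613%, 0.0566% and 0.307%. The anagen library was the highest for each of these 4 arms. Each of the 12 comparisons between libraries differed beyond counting error, with Fisher's exact p from 2.87e-73 for miR-142-5p in telogen against anagen to 0.00150 for miR-223-3p in telogen against catagen. With 18 to 21 nt counted as short, miR-223-3p had 24.5%, 16% and 18.3%, and telogen was no longer told apart from anagen (Fisher's exact p = 0.0587) or from catagen (Fisher's exact p = 0.399). Outside the set the anagen library was also the highest. The median arm had 7.93%, 2.26% and 3.45% short reads, with catagen lowest, as in miR-155-5p, miR-223-3p and miR-146a/b-5p, whereas miR-142-5p was lowest in telogen. The reads that the authors removed for being under 18 nt were 3.38%, 2.66% and 0.566% of the high-quality reads, also highest in anagen, and their part in these shares was not tested.

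Examples from miR-155-5p show the shift, and both tags begin at the same base. The 18 nt tag had 87, 13 and 30 reads, with anagen highest, and the 23 nt tag had 133, 437 and 383.
miR-155-5p, 18 nt: ttaatgctaatcgtgata
miR-155-5p, 23 nt: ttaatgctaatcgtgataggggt

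In miR-142-5p the most frequent length at the main start was 20 nt in anagen, 21 nt in catagen, and in telogen it was 22 nt. Its +3 nt start peaked at 22 nt in all 3 libraries, which places its last base 25 nt from the main start. Short tags were 9.84% of the reads of that start in anagen, where they were 43.2% of those of the main start. With tags of 21 nt or longer alone, miR-223-3p had 8.06, 14.9 and 53.0 RPM, and its order did not change.

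**Figure D3:**
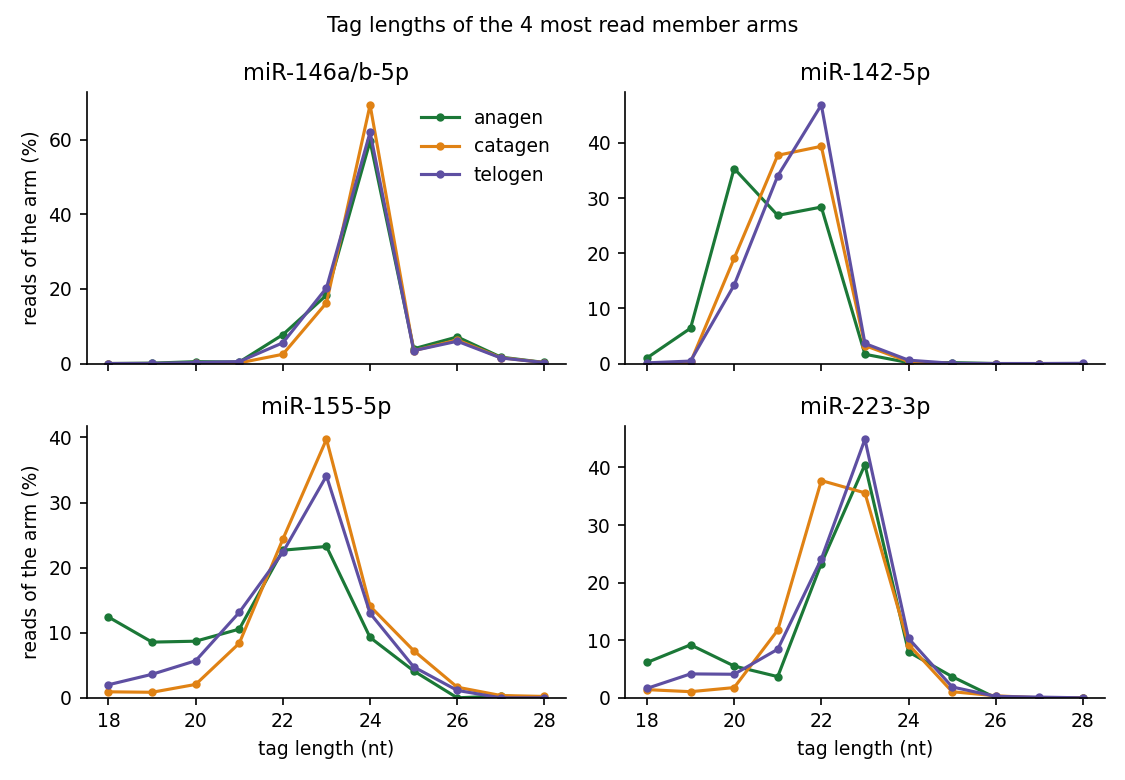
Share of the reads of an arm at each tag length from 18 to 28 nt, with 1 line per library. The anagen line peaks at 20 nt in miR-142-5p and is raised at 18 to 20 nt in miR-155-5p and miR-223-3p, whereas miR-146a/b-5p peaks at 24 nt in all libraries.

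Both arms of miR-142 and the main arm of miR-223 were read from more than a single start. In miR-142-5p the main start had 82.2%, 77.5% and 84.2% of the reads in anagen, catagen and telogen. The start at +2 nt, with the seed ATAAAGT, had 12.5%, 16.1% and 11.4%, and that at +3 nt, with the seed TAAAGTA, had 5.13%, 6.02% and 4.29%. Catagen had the smallest share of the main start, with a Fisher's exact p of 3.07e-07 against telogen and 0.00390 against anagen.

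In miR-223-3p the main start had 75.5%, 78.3% and 84.0% of the reads, and the start at +1 nt, with the seed TCAGTTT, had the rest. The telogen share differed from anagen with a Fisher's exact p of 0.00797 and from catagen with 0.0243. In miR-142-3p the main start had 85.7%, 80.4% and 80.6%, from 42 reads in anagen and more in the other libraries, and the start at -1 nt had the rest. miR-155-5p and miR-146a/b-5p had at least 99.6% of their reads at the main start in each library. The differences in miR-146a/b-5p were below 1 percentage point.

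Over the 148 arms with at least 100 reads in every library, the median share of the main start was 98.8%, 99.0% and 99.4%. The shares of miR-142-5p and miR-223-3p lay below the lower quartile of these arms, which was 92.0% to 92.7%.

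**Figure D4:**
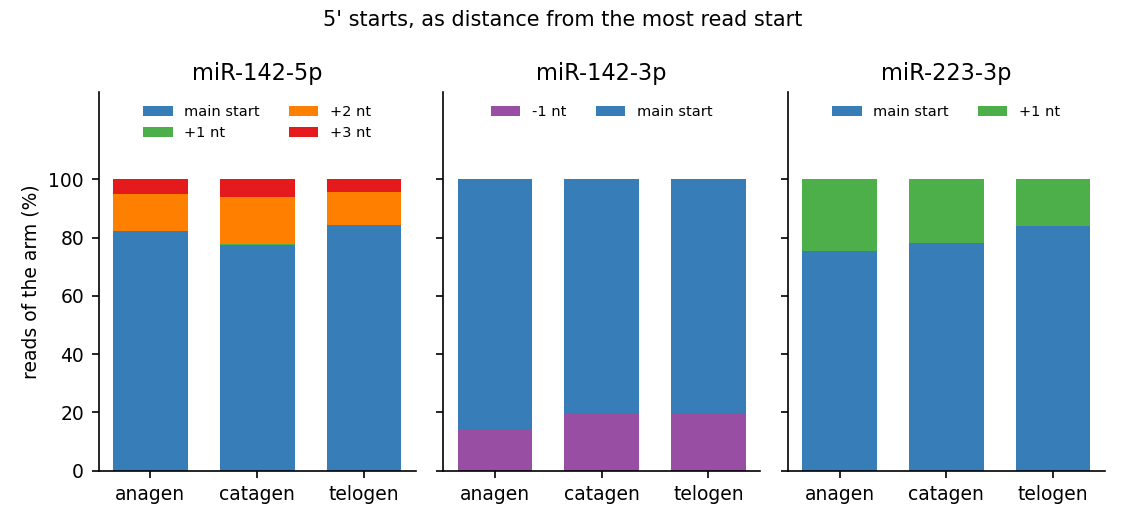
Share of the reads of miR-142-5p, miR-142-3p and miR-223-3p at each 5′ start, given as the distance in nt from the most read start, in each library. The main start holds 75.5% to 85.7% of the reads in all bars, and the share of the +1 nt start of miR-223-3p is smallest in telogen.

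The 3′ ends also differed between the members. A read was counted as departing when its 3′ end left the sequence that the listed tags of the arm spell out, which includes added bases and sequencing errors alike. In miR-223-3p 49.1% of the reads departed in anagen, with an exact 95% interval of 41.2 to 57.0. The share was 40.2% in catagen (34.4 to 46.2), and telogen had 41.7% (39.2 to 44.2). The first departing base was T (U in the RNA) in 92.5%, 92.9% and 91.2% of these. In miR-142-5p the departing share was 21.8% (19.5 to 24.3), 26.9% (24.6 to 29.3) and 30.4% (28.6 to 32.2), and T came first in 66.4%, 76.1% and 72.6%. miR-155-5p was of the opposite kind. Its departing share was 15.0%, 23.3% and 18.6%, and A came first in 92.4%, 92.4% and 91.4%. In miR-146b-5p the share was 15.0%, 13.0% and 12.6%, with A first in 53.0% in each library. These shares are of the reads of an arm with tags of 18 to 20 nt included, except in miR-146b-5p, where only tags that reach base 21 were counted. Such tags were 42.8%, 19.3% and 14.8% of the miR-142-5p reads, and 29.7%, 3.84% and 11.3% of the miR-155-5p reads. miR-142-5p had 259, 380 and 744 departing reads, beside 680, 1140 and 2087 reads of 21 nt or longer. The part of short tags in the order of the libraries was not tested.

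Over 138 arms the median departing share was 14.7%, 16.8% and 15.8%, with an upper quartile of 28.1% to 30.2%, which miR-223-3p exceeded in every library. The first departing base was compared in the arms with at least 20 departing reads, which were 112, 121 and 127 arms. There A came first in 54.1%, 57.9% and 58.3% of the departing reads of the median arm. miR-155-5p lay above the upper quartile of that share and miR-223-3p below the lower quartile in each library. The most read departing tags of these arms are printed with the departing base in capitals. That of miR-223-3p was read 40, 56 and 310 times and was the most read tag of its arm. That of miR-142-5p was read 142, 254 and 490 times, and that of miR-155-5p 48, 118 and 89 times.
miR-223-3p: tgtcagtttgtcaaataccccaT
miR-142-5p: cccataaagtagaaagcactaT
miR-155-5p: ttaatgctaatcgtgatagggA

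**Figure D5:**
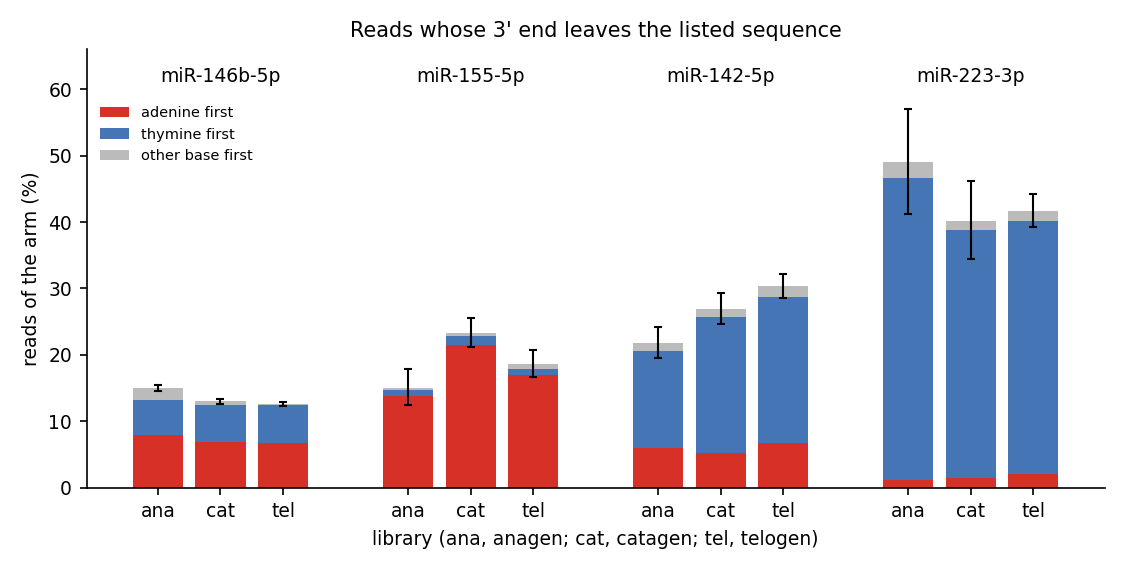
Share of the reads of an arm whose 3′ end leaves the listed sequence, split by the first departing base, with exact binomial 95% intervals of the whole share. Thymine takes most of the bar in miR-223-3p and miR-142-5p, adenine takes most of it in miR-155-5p, and miR-146b-5p has both.

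Lists of further leukocyte miRNAs and of markers of other cells were read in the same libraries, and some of the lists held calls. Each listed miRNA is given by its most read arm only, unlike the immune cell set, where every arm was counted. Other miRNAs of lymphocytes (miR-342, miR-181a and miR-181b, 3 of 3 measured) summed to 29.0, 29.6 and 22.8 RPM in anagen, catagen and telogen, and none was called in any pair. Of the miRNAs induced in activated macrophages, 4 of 5 were measured and summed to 2331, 3680 and 2739 RPM, nearly all of it miR-21. In this list miR-9 was called in all 3 pairs, with 0.688, 2.43 and 5.03 RPM, and miR-147 had 1, 4 and 14 reads and was below the minimum of the test. miR-187 had 6.06, 5.91 and 8.44 RPM and was not called.

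The red blood cell miRNAs (3 of 3) summed to 1301, 2122 and 876 RPM. miR-144 was called lower in telogen, with 104, 76.4 and 7.18 RPM, as was miR-451, with 863, 1266 and 431 RPM. The call on miR-451 against anagen lay at the limit, with a log2 ratio of -1.00008. miR-486 was called higher in catagen than in anagen, with 335, 779 and 438 RPM. The endothelial miR-126 had 38.9, 32.0 and 37.1 RPM and was not called.

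The muscle miRNAs (4 of 4, where miR-133a and miR-133b share an arm) summed to 4116, 78781 and 21402 RPM, and all were called higher in catagen and in telogen than in anagen and lower in telogen than in catagen. The most read arms of the epithelial miRNAs (3 of 4) summed to 1182, 1939 and 2003 RPM with no call. The less read arm of miR-205, outside that sum, had 14.5, 3.53 and 13.3 RPM. It was called lower in catagen than in anagen and higher in telogen than in catagen. Most of the sum was the main arm of miR-205, with 990, 1790 and 1863 RPM, while miR-183 ran the other way, with 158, 108 and 101 RPM. Dermal mesenchyme miRNAs (2 of 2) summed to 12534, 22727 and 18012 RPM. Only miR-214 was called, higher in telogen than in anagen, with 0.625, 1.49 and 1.63 RPM, from no more than 10, 27 and 44 reads. The part of these lists in the levels of the immune cell miRNAs was not tested.

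The arms whose pattern over the 3 libraries lay nearest to a member were sought among 144 other arms with at least 100 reads in every library, by the distance between log2 levels centred over the libraries. With 3 points per arm this is a description. miR-155-5p lay close to miR-378/miR-378c (distance 0.03), which had 582, 1053 and 728 RPM, and to miR-148a (0.04), which had 200, 368 and 253 RPM. The nearest arms of miR-142-5p were miR-19b (0.08) and miR-411a (0.09), and those of miR-146a/b-5p were miR-185 and miR-96 (0.08 each). Among the arms compared, miR-223-3p had no near neighbour. Its nearest arms there were miR-31, at a distance of 0.88 and with 8.31, 16.8 and 27.4 RPM, and an arm of miR-2904, at 1.03 and with 181, 248 and 415 RPM. Arms with fewer reads were not compared, and some of them also rose to telogen. Examples are an arm of miR-130a, with 0.688, 1.71 and 4.81 RPM, and an arm of miR-299, with 1.19, 3.64 and 9.40 RPM.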

How the data were processed

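Total RNA was isolated from the mixed skin of 10 adult goats per stage, RNA of 18 to 30 nt was size-selected, and 1 library per stage was sequenced on an Illumina/Solexa analyser. The authors removed low-quality reads, adapter and poly(A) reads and reads under 18 nt, and deposited each distinct tag with its count, a number of reads without normalisation. A filtering record deposited by the authors gives counts of the reads removed. Reads under 18 nt were 3.38%, 2.66% and 0.566% of the high-quality reads in anagen, catagen and telogen. No genome build enters these values.

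Listed tags were taken from a shortened copy of the conserved miRNA annotation made by the authors, so no overlap test was run on it. Listed starts of the same miRNA within 4 nt were joined into an arm, and every tag with such an 18 nt start was counted. The arms were named 5p or 3p by the known arms of these miRNAs. Reads were scaled to clean reads. Arms under 1 RPM in both libraries were left out and a value of 0 was set to 0.01. Following the methods of the study, reads of every arm were compared between libraries by the exact test of Audic and Claverie (two-sided). Intervals of ratios and shares are exact (Clopper-Pearson). Shares were compared with Fisher's exact test, 12 tests each for starts and short tags, without adjustment over the set. The smallest exact p values are those of a test on reads and do not measure variation between animals.

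The members, the marker lists and the rule for named miRNAs (all arms of the 6 precursors, the marker lists, and the 2 nearest arms of each member arm with at least 100 reads in every library) were chosen with earlier results of these data known. Fits used Python 3.11.15, numpy 2.4.6, scipy 1.17.1 and edgeR 4.0.16 in R 4.3.3. The test was checked on counts simulated without spread beyond counting error, and recovery was checked in well-read arms only. That check does not cover variation between animals or arms with few reads.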

Additional observations from a re-analysis of the deposited data

How the results depend on the processing

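Of 238 recomputed member ratios, 223 kept their direction and their side of the call, 5 passed the call newly, 3 lost it and 7 turned direction. Part of this count was fixed in advance. Fisher's exact test, the adjusted p, no minimum (19 ratios each), the minimum of 100 reads (13 ratios) and the edgeR test changed only the test or the limit. Direction could not turn under these settings. miR-142-5p in catagen over anagen turned to -0.23 with median-of-ratios factors, -0.34 with TMM factors, -0.026 with listed tags only and -0.013 with the most abundant start only, and in telogen over anagen to -0.0082 with TMM factors. miR-146a/b-5p in catagen over anagen turned to -0.064 with median-of-ratios and -0.17 with TMM factors. Where 100 reads were required in each library of a pair, the calls over all arms were 27, 20 and 14 (catagen over anagen, telogen over anagen, telogen over catagen), since fewer arms were tested, and the member calls were 0 in catagen over anagen and 1 in telogen over anagen. The edgeR exact test, with the biological coefficient of variation set to 0.4, called 8, 15 and 2 arms, and 0 members in catagen over anagen and in telogen over catagen, where miR-142-3p (exact p = 0.0169) and miR-223-3p (exact p = 0.0267) were lost, as was miR-223-5p in telogen over anagen (exact p = 0.0105). Member calls in catagen over anagen were 2 with tags of 21 nt or longer and with the most abundant tag. They were also 2 with tags of 21 to 24 nt or holding an inner 16 nt, settings added after the data were seen. Calls over all arms in that pair were 80 as reported. They were 97 with tags of 21 nt or longer, 85 with the most abundant tag and 94 with tags of 21 to 24 nt. In telogen over catagen, member calls were 2 with the most abundant tag and with an inner 16 nt. Calls over all arms in that pair were 43 with the most abundant tag, against 37 as reported. Giving the short tags to miR-146a raised its share to 0.915% in anagen and 0.680% in telogen. With 18 to 21 nt as short, 10 of the 12 short-tag tests had a Fisher's exact p under 0.05, against 12 with 18 to 20 nt. Scaled to the reads of all arms, telogen over anagen had 101 calls over all arms, against 70. The cause of these changes was not tested.

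A table built from reference mature sequences and a count of 3′ additions against a hairpin were not run, because the reference used here holds no miRNA sequences. No paired analysis was possible because there is 1 library per stage, and no library was left out. Depth limits miR-223-5p and miR-146b-3p, whose floor of 3 reads is 0.188, 0.166 and 0.111 RPM.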

Other observations

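A group of miR-146b-5p tags was read almost only in the anagen library. Among the reads of miR-146b-5p whose 3′ end left the listed sequence, G was the first departing base in 346 of 3346 in anagen, or 10.3% (exact 95% interval 9.33 to 11.4), in 7 of 3893 in catagen, or 0.180%, and in 30 of 6758 in telogen, or 0.444%. The median of other arms with at least 20 departing reads was 2.23% over 112 arms in anagen, 1.49% over 121 arms in catagen and 2.27% over 127 arms in telogen, and 9 of the arms in anagen had a share as high as that of miR-146b-5p. The 3 most read of these tags are printed with the departing bases in capitals. They had 125, 0 and 3 reads, then 99, 0 and 1, and then 40, 0 and 6 in anagen, catagen and telogen. The tags were chosen after their values were seen, and no cause was tested.
miR-146b-5p, 26 nt: tgagaactgaattccataggctgGTT
miR-146b-5p, 27 nt: tgagaactgaattccataggctgGTTT
miR-146b-5p, 24 nt: tgagaactgaattccataggctgG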
